A study of Danio rerio with 6 samples.

Results

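The genes described here are 10 genes of the circadian clock in zebrafish, its activators and their bHLH partners, chosen by name: *clocka*, *clockb*, *npas2*, *bmal1a*, *bmal1b*, *bmal2*, *bhlhe40*, *bhlhe41*, *rorca* and *rorcb*. The table of array values names 19260 genes by a probe set of their own. Of the 10, 9 were measured, each by 1 such probe set, and *rorca*, which has none, was not analysed here. The values come from 6 arrays of whole larvae at 4 dpf, 3 of *il7r*-/- larvae and 3 of WT larvae of the Tu strain, and each sample was a pool of larvae. The *il7r*-/- larvae came from 1 homozygous line made with CRISPR/Cas9, in which a small deletion shifts the reading frame of *il7r* and truncates the receptor. Neither group carried another allele or received a treatment according to the labels, and both were kept under a light and dark cycle. The hour at which larvae were collected is not given in the sources used here. Clock genes cycle through the day, so any difference in hour between the groups cannot be told apart from the genotype in these values.

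The clock is a loop of transcription factors that feeds back on itself. CLOCK, or its relative NPAS2, pairs with BMAL, and the pair binds E-box elements and turns on the period, cryptochrome and REV-ERB genes, whose products repress the pair or the *bmal1* genes in turn. The bHLH factors BHLHE40 and BHLHE41, also known as DEC1 and DEC2, are turned on by the same pair and compete with it at E-boxes, and the ROR receptors activate *bmal1* at elements that the REV-ERB receptors also bind. In zebrafish most tissues hold a clock that light can set directly.

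The arrays were checked before the clock genes were compared. The probe set of *il7r* had log2 values of 1.42, 1.64 and 1.71 in *il7r*-/- larvae and 1.40, 1.80 and 1.76 in WT larvae. It lay near the bottom of the scale in both groups, with 3.52% of all genes at or below its mean, so it does not check the genotype. Muscle and neuron markers of whole larvae were bright in all arrays, and the creatine kinase gene *ckma* had values of 10.02 to 10.09 in *il7r*-/- larvae and 9.55 to 9.85 in WT larvae. All 5 muscle markers had a difference above 0 (median 0.24), and none passed the test. Of these, 2 were higher without overlap between the groups, beside 8.84% of all genes. Of the 6 neuron markers 3 had a difference below 0 and 3 above it (median -0.04), and none passed. The 3 below 0 did not overlap WT, beside 13.4% of all genes. The 3 measured liver and gut markers were dimmer, with *ttr* at 3.10 to 3.19 in *il7r*-/- larvae and 3.25 to 3.42 in WT larvae. All 3 of these liver and gut markers had a difference below 0 (median -0.27) without passing. WT replicate 3 stood apart, and across probe sets its Pearson correlation with WT replicates 1 and 2 was 0.965, while that of any pair of *il7r*-/- arrays was 0.979 to 0.980 and that of WT replicates 1 and 2 was 0.977.

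None of the 9 measured clock genes passed the test between *il7r*-/- and WT larvae. A gene was called at a Benjamini-Hochberg adjusted p under 0.05 from limma, adjusted over the whole table of 75212 probe sets, together with a difference of more than 1.5-fold. By this rule 0.234% of all genes were called, 0.182% lower and 0.0519% higher. The genes for the CLOCK and BMAL proteins, *clocka*, *clockb*, *bmal1a*, *bmal1b* and *bmal2*, differed by at most 0.18 on the log2 scale, while *npas2*, *bhlhe40*, *bhlhe41* and *rorcb* differed by 0.54 to 1.0. In 5 of the 9 genes no *il7r*-/- array overlapped the WT arrays, 3 of them lower and 2 higher, beside 22.3% of all genes without overlap (13.4% lower and 8.84% higher). Without adjustment 2 of the 9, *npas2* and *bhlhe40*, passed, beside 2.98% of all genes. The same 2 passed the one-way analysis of variance of the methods at 1.5-fold without adjustment, beside 2.47% of all genes. The methods also mention correcting p by a false discovery rate. With Benjamini-Hochberg adjustment of that test none of the 9 passed, and 3 of the 75212 probe sets did. Without the fold threshold and without adjustment, 4 of the 9 had a limma p under 0.05, 3 lower and 1 higher, beside 12.3% of all genes.

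**Figure D1:**
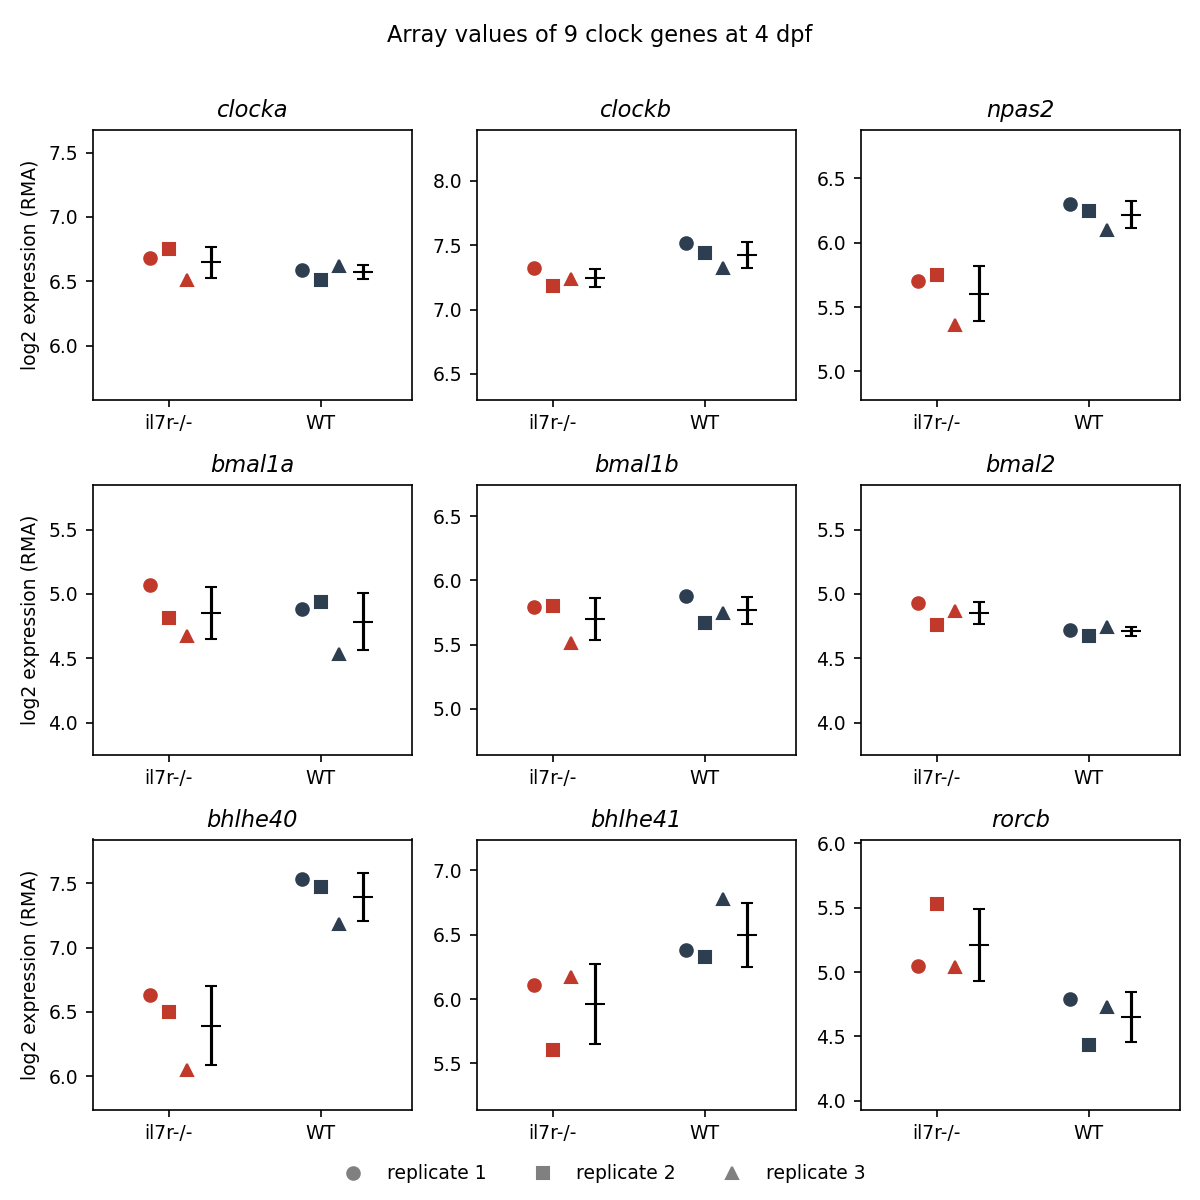
Log2 expression (vertical axis, RMA values) of the 9 measured clock genes in the 3 *il7r*-/- arrays (red) and the 3 WT arrays (dark), with each symbol a replicate and the bar beside each group its mean and SD. The vertical axis spans the same range in every panel, and *bhlhe40* shows the widest gap, with 6.05 to 6.63 in *il7r*-/- larvae and 7.18 to 7.53 in WT larvae.

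*clocka* and *clockb* encode CLOCK, the bHLH-PAS protein that pairs with BMAL. *clocka* had log2 values of 6.68, 6.75 and 6.51 in *il7r*-/- larvae, against 6.59, 6.51 and 6.62 in WT larvae. The groups overlapped, and the lowest array of each group had the same value. The difference was 0.07 (*il7r*-/- minus WT, standard error 0.11, adjusted p = 0.844 from limma), with a 95% interval of -0.20 to 0.34 that excludes a 1.5-fold change in either direction. *clockb* had values of 7.32, 7.18 and 7.24 in *il7r*-/- larvae, against 7.52, 7.44 and 7.32 in WT larvae. Its highest *il7r*-/- array equalled its lowest WT array, WT replicate 3. The difference was -0.18 (standard error 0.11, adjusted p = 0.574), with a 95% interval of -0.44 to 0.08.

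*npas2* encodes the relative of CLOCK that takes its place beside BMAL, mainly in the forebrain of mammals. Its log2 values were 5.70, 5.75 and 5.36 in *il7r*-/- larvae, against 6.30, 6.25 and 6.10 in WT larvae. The groups did not overlap, and the nearest arrays of the 2 groups were 0.35 apart. Its mean was 5.60 ± 0.21 in *il7r*-/- larvae and 6.22 ± 0.10 in WT larvae (SD, n = 3 each), a difference of -0.61 (standard error 0.14, 95% interval -0.95 to -0.27) or 0.654 of the WT level. This was past 1.5-fold but was not called (adjusted p = 0.189 from limma). Of all genes, 2.30% had a difference as low or lower.

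*bmal1a*, *bmal1b* and *bmal2* encode BMAL, the partner of CLOCK and NPAS2. *bmal1a* had log2 values of 5.07, 4.81 and 4.67 in *il7r*-/- larvae, against 4.88, 4.94 and 4.53 in WT larvae, and *bmal1b* had 5.79, 5.80 and 5.51 in *il7r*-/- larvae, against 5.88, 5.67 and 5.75 in WT larvae. The groups overlapped widely in both genes. The difference was 0.07 in *bmal1a* (95% interval -0.33 to 0.46, adjusted p = 0.909) and -0.07 in *bmal1b* (95% interval -0.38 to 0.24, adjusted p = 0.879). Each sign turned without a given array, to -0.06 in *bmal1a* without WT replicate 3 and -0.04 without *il7r*-/- replicate 1, and to 0.03 in *bmal1b* without *il7r*-/- replicate 3. *bmal2* had values of 4.93, 4.76 and 4.87 in *il7r*-/- larvae, against 4.72, 4.67 and 4.74 in WT larvae. Its groups did not overlap, but the gap between them was 0.02 and the difference 0.14 (95% interval -0.11 to 0.39, adjusted p = 0.637). All 3 intervals lie within 1.5-fold of no difference.

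*bhlhe40*, which encodes a repressor that competes with the CLOCK and BMAL pair, had the largest difference of the 9 genes. Its log2 values were 6.63, 6.50 and 6.05 in *il7r*-/- larvae, against 7.53, 7.47 and 7.18 in WT larvae. The highest *il7r*-/- array lay 0.55 below the lowest WT array. The mean was 6.39 ± 0.30 in *il7r*-/- larvae and 7.39 ± 0.19 in WT larvae (SD, n = 3 each), a difference of -1.0 (standard error 0.19, 95% interval -1.45 to -0.55) or 0.50 of the WT level. It was not called (adjusted p = 0.121 from limma), and 0.571% of all genes had a difference as low or lower. With the test restricted to the 20806 probe sets with 1 gene name, it was called (adjusted p = 0.0396), as were 1.11% of all genes. Over the alternatives with an adjusted p, that p ranged from 0.0396 to 0.311.

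*bhlhe41* encodes the other factor of this kind. Its log2 values were 6.11, 5.60 and 6.17 in *il7r*-/- larvae, against 6.38, 6.33 and 6.78 in WT larvae. The groups did not overlap, with a gap of 0.16, while *il7r*-/- replicate 2 lay well below and WT replicate 3 well above the other arrays of its group. The mean was 5.96 ± 0.31 in *il7r*-/- larvae and 6.50 ± 0.25 in WT larvae (SD, n = 3 each), a difference of -0.54 (standard error 0.20, 95% interval -1.02 to -0.05, adjusted p = 0.372). Without *il7r*-/- replicate 2 the difference was -0.36, and without WT replicate 3 it was -0.395.

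*rorcb* encodes a ROR receptor of the gamma type, and besides *bmal2* it was the only member with higher values in all *il7r*-/- arrays than in any WT array. Its log2 values were 5.05, 5.53 and 5.04 in *il7r*-/- larvae, against 4.79, 4.43 and 4.73 in WT larvae. The gap was 0.25, and *il7r*-/- replicate 2 was the highest array. The mean was 5.21 ± 0.28 in *il7r*-/- larvae and 4.65 ± 0.19 in WT larvae (SD, n = 3 each), a difference of 0.56 (standard error 0.18, 95% interval 0.13 to 0.99) or 1.47 times the WT level. It was not called (adjusted p = 0.309 from limma), and 0.976% of all genes had a difference as high or higher.

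**Figure D2:**
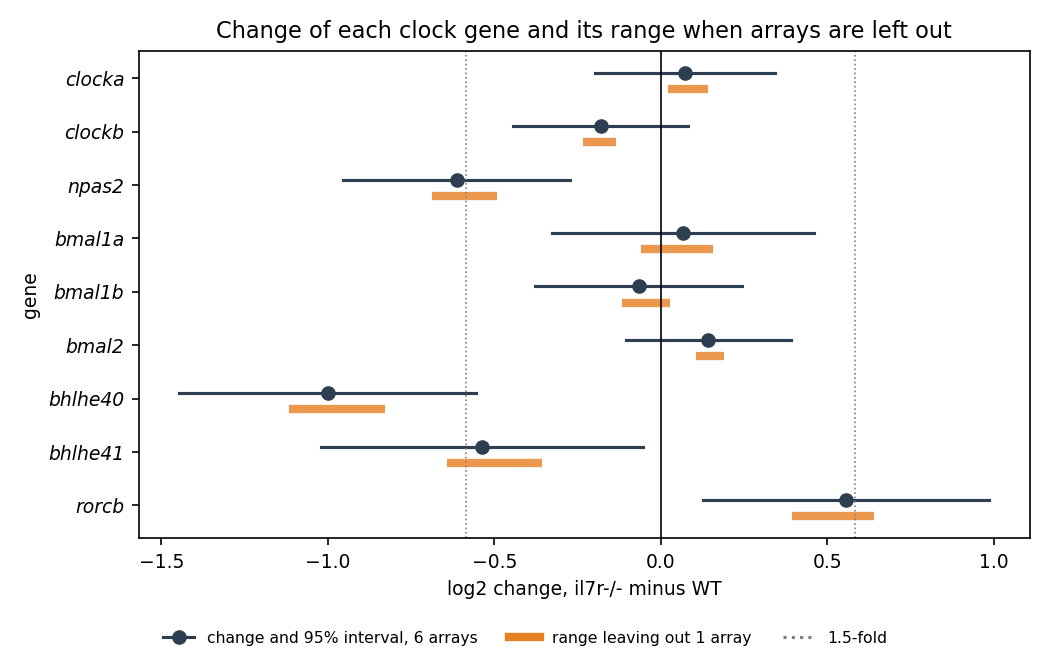
Log2 change, *il7r*-/- minus WT (horizontal axis), of the 9 clock genes, with points and thin lines for the change and its 95% interval over 6 arrays, thick orange bars for the range of the change when each array is left out in turn, and dotted lines at 1.5-fold. The intervals of *npas2*, *bhlhe40*, *bhlhe41* and *rorcb* lie on 1 side of 0, at -0.61, -1.0, -0.54 and 0.56, and those of the other 5 genes span 0.

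The direction held for 7 of the 9 genes without any 1 of the arrays. The difference then ranged from -1.12 to -0.83 in *bhlhe40*, from -0.69 to -0.49 in *npas2*, from -0.64 to -0.36 in *bhlhe41* and from 0.395 to 0.64 in *rorcb*. Without WT replicate 3, the array that stood apart, it was -1.11 in *bhlhe40* (adjusted p = 0.112), -0.67 in *npas2* (adjusted p = 0.174) and 0.60 in *rorcb* (adjusted p = 0.315). In 6 of the 9 genes *il7r*-/- replicate 3 was the lowest of the *il7r*-/- arrays, beside 33.5% of all genes. Of these 6, WT replicate 3 was also the lowest WT array in *npas2*, *bmal1a* and *bhlhe40*, but not in *clocka*, *bmal1b* and *rorcb*. Whether arrays of the same number shared a batch was not tested in these genes. In an exact permutation test over the 6 arrays (two-sided) the 5 genes without overlap each had p = 0.1, the smallest that this test can give here. Lack of overlap fixes this p, so the test adds nothing to the count without overlap.

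Related genes were set against each other within each array, to ask whether they differed in their response to the genotype. Levels of different probe sets cannot be compared, so only the shift of their difference between the groups was read. The log2 value of *clocka* minus that of *npas2* was 0.98, 1.0 and 1.15 in *il7r*-/- larvae, against 0.29, 0.26 and 0.52 in WT larvae. These groups did not overlap, and the difference shifted by 0.69 (exact permutation test, two-sided, p = 0.1, the smallest it can give, and 0.4 after adjustment over the 4 pairs compared). In the other 3 pairs the groups overlapped. The shift was 0.25 for *clocka* minus *clockb* (exact p = 0.2), 0.13 for *bmal1a* minus *bmal1b* (exact p = 0.4) and -0.46 for *bhlhe40* minus *bhlhe41* (exact p = 0.3), each with 0.4 after adjustment. For *bhlhe40* minus *bhlhe41* the values were 0.52, 0.90 and -0.12 in *il7r*-/- larvae, against 1.15, 1.14 and 0.40 in WT larvae. Replicate 3 was the lowest in both groups, and the SD was 0.52 in *il7r*-/- larvae and 0.43 in WT larvae, about the size of the shift. Without *il7r*-/- replicate 3 this shift was -0.19, and without WT replicate 3 it was -0.71. The shift of *bmal1a* minus *bmal1b* was 0.015 without WT replicate 3 and 0.26 without WT replicate 2. Without 1 array it ranged from 0.17 to 0.33 for *clocka* minus *clockb* and from 0.63 to 0.77 for *clocka* minus *npas2*. With 3 arrays a group this exact test cannot reach p under 0.05, so it could not decide whether any pair differed. No other test of the pairs was run, and no pair was shown to differ.

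**Figure D3:**
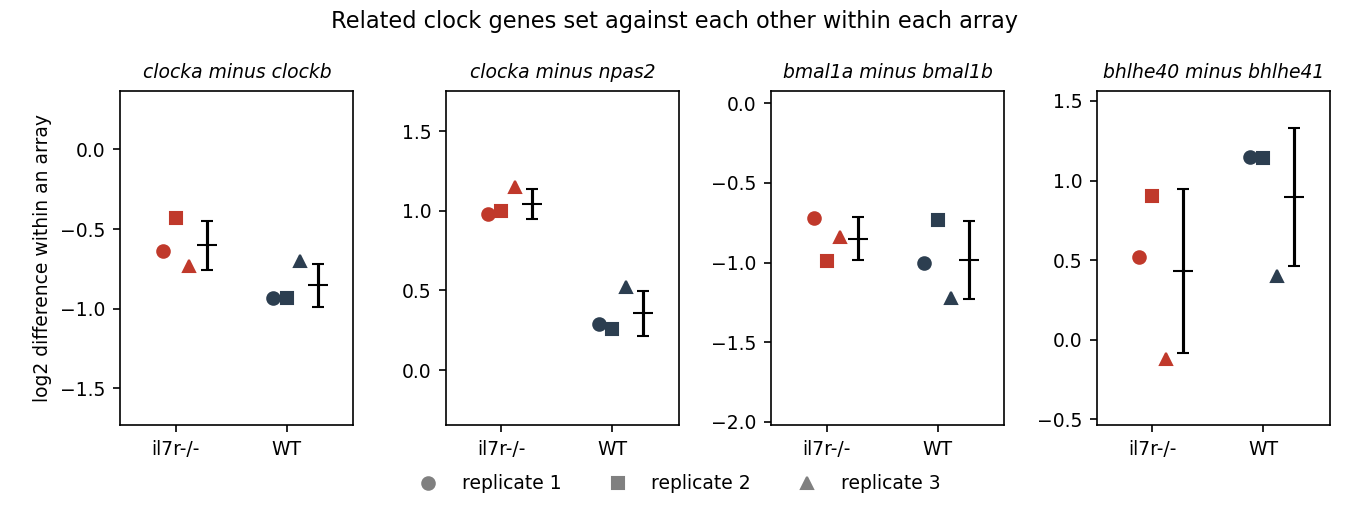
Within-array difference of log2 values (vertical axis) for 4 pairs of related clock genes, in *il7r*-/- arrays (red) and WT arrays (dark), with each symbol a replicate and the bar its group's mean and SD. The groups are apart only for *clocka* minus *npas2*, with 0.98 to 1.15 in *il7r*-/- larvae and 0.26 to 0.52 in WT larvae.

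On the repressing side of the loop, 7 of 9 period and cryptochrome genes and all 7 REV-ERB and CIART genes had a difference below 0. Among the 9 genes described above 5 did, and among all 19260 genes 10599 did. Those 9 are not activators alone, since they include *bhlhe40* and *bhlhe41*, which encode repressors. The clock genes and lists were chosen with earlier results of these data known. Counts and shares of them therefore describe the lists and do not test them. The lists were also not tested against each other. CIART is a repressor of the CLOCK and BMAL pair. The median difference was -0.07 over the 9 genes described above, -0.58 over 9 period and cryptochrome genes and -0.42 over 7 REV-ERB and CIART genes, beside -0.02 over all genes. Of the period and cryptochrome genes none passed the test, while 7 lay below WT and 1 above it without overlap, beside 13.4% and 8.84% of all genes. The brightest of them were *cry3a*, with a difference of 0.29 (adjusted p = 0.454), and *per3*, with -0.45 (adjusted p = 0.314). Of the REV-ERB and CIART genes 1 fell, beside 0.182% of all genes, and 4 of the 7 lay below WT without overlap, beside 13.4%. The gene that fell was *nr1d1*, which encodes the receptor REV-ERB alpha, a repressor of *bmal1*. Its log2 values were 7.39, 7.37 and 7.42 in *il7r*-/- larvae, against 8.64, 8.59 and 8.27 in WT larvae, a difference of -1.11 (standard error 0.13, adjusted p = 0.0390). The call of *nr1d1* held without WT replicate 3 (adjusted p = 0.0330) and was lost when any other array was left out, with an adjusted p of up to 0.185. Without any of those other arrays, calls over all probe sets fell from 224 to between 5 and 15. The loss of a call therefore says little about *nr1d1* itself, and its difference stayed between -1.22 and -1.04 without 1 array.

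The other ROR receptors did not pass the test. *roraa*, the brightest of the 3, had a difference of -0.30 (adjusted p = 0.351), *rorab* had -0.34 (adjusted p = 0.544) and *rorb* had 0.05 (adjusted p = 0.928). Of the 3, only *roraa* lay below WT without overlap, beside 13.4% of all genes. Thus *rorcb* was the only ROR gene of the 4 measured with a difference above 0.5, and whether it differs from the others was not tested.

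Clock output and regulators of clock proteins were next considered. Among 11 PAR bZIP and NFIL3 factors, which carry the rhythm to D-box elements, 1 gene fell, beside 0.182% of all genes. Of these factors 9 had a difference below 0, with a median of -0.36. Without overlap 6 lay below WT and 1 above it, beside 13.4% and 8.84% of all genes. *hlfa*, which encodes a PAR bZIP activator, had log2 values of 7.72, 7.58 and 7.41 in *il7r*-/- larvae, against 8.70, 8.72 and 8.56 in WT larvae, a difference of -1.09 (standard error 0.12, adjusted p = 0.0364). Among 14 clock kinases and F-box proteins, 1 gene fell, beside 0.182% of all genes, and the median was -0.16. Of these 14 genes, 4 lay below WT and 1 above it without overlap, beside 13.4% and 8.84% of all genes. *gsk3aa*, a glycogen synthase kinase gene, had values of 4.12, 4.00 and 4.53 in *il7r*-/- larvae, against 5.47, 5.73 and 5.48 in WT larvae, a difference of -1.34 (standard error 0.17, adjusted p = 0.0467). The calls of *hlfa* and *gsk3aa* ended without any 1 of the 6 arrays, with adjusted p of 0.0506 to 0.175 and of 0.0715 to 0.190. Except without WT replicate 3, those fits called only 5 to 15 probe sets in all. The differences stayed between -1.165 and -1.01 in *hlfa* and between -1.5 and -1.235 in *gsk3aa*. Of 3 photolyase family genes none passed, with -0.68 for *cry-dash* (adjusted p = 0.192) and -0.17 for *cry4* (adjusted p = 0.691).

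The wider families of these factors had medians near that of all genes. Among 20 other bHLH-PAS genes, the family of CLOCK and BMAL, none passed the test, 12 had a difference below 0 and the median was -0.04. Without overlap 3 lay below WT and 4 above it, beside 13.4% and 8.84% of all genes. The brightest of the 20 were *arnt2*, a general partner of bHLH-PAS proteins, with 0.20 (adjusted p = 0.491), and *hif1ab*, which encodes an oxygen-regulated subunit, with -0.34 (adjusted p = 0.319). The far point of this list was *ahrrb*, a repressor of the aryl hydrocarbon receptor, which is named because its value was seen. It had values of 4.46, 4.88 and 4.13 in *il7r*-/- larvae, against 3.16, 3.05 and 3.02 in WT larvae, a difference of 1.41 (adjusted p = 0.0609). Among 18 *her*, *hes* and *hey* genes, the relatives of *bhlhe40* and *bhlhe41*, none passed and the median was 0.06. Of the 18, 14 were above 0, beside 8661 of all 19260 genes. Without overlap 2 of them lay above WT and none below it, beside 8.84% and 13.4% of all genes. *her6* had a difference of 0.09 (adjusted p = 0.857) and *her2* of 0.42 (adjusted p = 0.365).

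**Figure D4:**
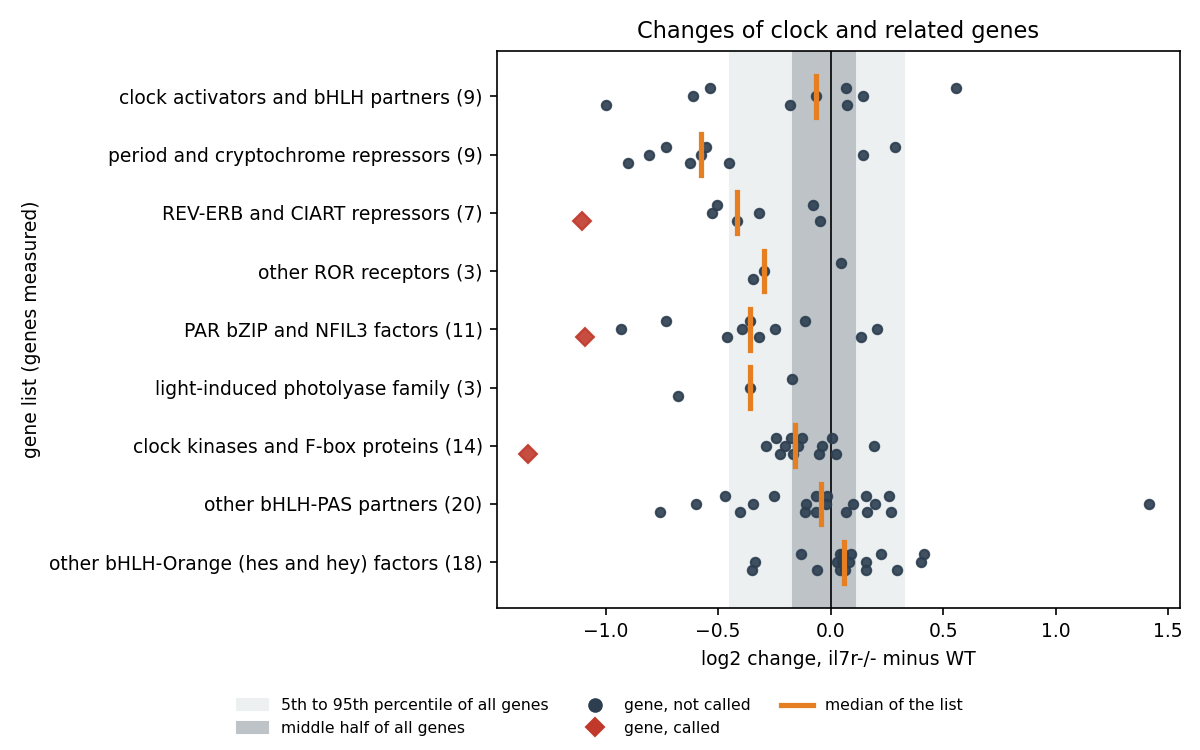
Log2 change, *il7r*-/- minus WT (horizontal axis), of every measured gene in 9 lists of clock and related genes, with red diamonds for called genes, orange bars for the median of each list and grey bands for the middle of the distribution over all genes. The medians lie at -0.07 for the activators and bHLH partners, -0.58 for the period and cryptochrome genes and -0.42 for the REV-ERB and CIART genes.

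Photoreceptors and the pineal gland hold clocks of their own, so markers of the eye and the pineal gland were set beside these values. All 12 measured photoreceptor markers had a difference below 0, while *rho* and *arr3a*, also listed, were not measured by a probe set of their own. Of the 12, 3 fell, beside 0.182% of all genes, and 10 lay below WT without overlap, beside 13.4%. The marker lists were chosen with earlier results of these data known. The paper itself picked *opn1sw1*, *opn1sw2*, *opn1mw1* and *opn1lw2* from the same arrays. These shares therefore describe the list and do not test it. The summed linear level of the 12 was 1197 to 1877 in *il7r*-/- larvae, against 3604 to 5425 in WT larvae. All 8 lens markers lay below WT without overlap, beside 13.4% of all genes, and none passed. The lens sums were 926 to 1503 in *il7r*-/- larvae, against 2068 to 3051 in WT larvae. Of 8 pineal markers 5 had a difference below 0 and none passed. Without overlap 2 lay below WT, the opsin genes *valopa* (-0.38) and *valopb* (-0.46), and 1 above it, *asmt2* (0.32). These counts stand beside 13.4% and 8.84% of all genes. The groups overlapped in the rest of the list. Its differences were -0.07 in *exorh*, -0.21 in *aanat2*, -0.46 in *otx5*, 0.19 in *parapinopsinb* and 0.32 in *tph2*. The pineal sums were 181.9 to 194.2 in *il7r*-/- larvae, against 186.6 to 244.6 in WT larvae. They overlap, and the brightest genes of the list, *valopa* and *otx5*, weigh most in them. No marker of these lists was at 0 on any array, but neither was the dim probe set of *il7r*, so this does not show detection. *opn1mw1* was dim, with 2.05 to 2.25 in *il7r*-/- larvae, against 2.90 to 3.68 in WT larvae. RNA of whole larvae cannot tell fewer cells of a type from less RNA per cell, and the part of the eye in the values of *npas2*, *bhlhe40*, *bhlhe41* and *rorcb* was not tested. In the GRCz12tu assembly none of the 10 clock genes lies on the chromosome that holds *il7r*, and *bmal2* and *bhlhe41* lie on 1 chromosome with 12 protein-coding genes between them.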

How the data were processed

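The authors hybridized RNA of pooled larvae to the Affymetrix Zebrafish Gene ST array and processed it in Expression Console. RMA is named in the submitters' processing notes. It removes background, brings the arrays to a common scale and gives 1 value per probe set. The deposited values were read as log2, since the base is not stated. Such values can understate the changes of dim genes.

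No further normalization was applied, and R 4.3.3 and limma 3.58.1 were used. All 75212 probe sets were fitted on genotype (lmFit and eBayes, two-sided) and p-values were adjusted by Benjamini-Hochberg over all of them. Probe sets that name several genes (855) or none (53551) were given to no gene, and a gene with several was represented by the brightest. Besides the members, called genes of each list, up to 4, or its 2 brightest genes were named. The clock genes and lists were chosen with earlier results of these data known. The sums of marker lists used values raised from log2 to the linear scale. The procedure was run on simulated data with independent errors drawn from the fitted model. This checks the code and not how these arrays vary. The number of arrays limits the precision. The methods give batches of larvae as replicates, which the labels do not name. Alternatives were another prior, the methods' test (one-way analysis of variance), other thresholds, normalizations and filters, averaging the probe sets of a gene, array weights, a replicate block and fits without each of the arrays.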

Additional observations from a re-analysis of the deposited data

How the results depend on the processing

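None of the 9 measured genes of the clock activators and bHLH partners was called under 15 of 18 alternatives. Both *bhlhe40* and *npas2*, 2 genes, were called by the methods' test without adjustment and by unadjusted limma p (2.47% and 2.98% of all genes), and 1 gene, *bhlhe40*, when only probe sets that name 1 gene were tested. Among all probe sets 224 were called, against 412 with an intensity trend and robust prior and 3616 at an unadjusted p. The methods' test called 2447 without and 3 with adjustment. Without WT replicate 3 the count was 293, and without any other single array it was 5 to 15. With the replicate number as a block, 1 probe set was called and none of the 9 genes. Alternatives that call so few probe sets could hardly call a member, and dropping the fold threshold left the same 224. The count of 15 therefore says little about stability. Over all probe sets, deviations of same-numbered arrays had correlations of -0.008, 0.003 and 0.023, and only replicate 3 matched its own number best. The numbers were not taken as pairs, although values this near 0 over all probe sets cannot exclude shared batches. Every member kept its sign except *bmal1a* (-0.06 to 0.16 without 1 array) and *bmal1b* (-0.12 to 0.028). The median of the 9 genes ranged from -0.12 to 0.028 without 1 array, the upper value without *il7r*-/- replicate 3. No pair difference turned its sign in 9 alternatives, but median centring and averaging probe sets, among these, could not move a difference within an array. Leaving out 1 array moved that of *bmal1a* and *bmal1b* between 0.015 and 0.26 and that of *bhlhe40* and *bhlhe41* between -0.71 and -0.19. Each member has 1 probe set, so averaging probe sets could not move its value. The number of arrays, 3 a group, limits which differences can pass, and the cause of these shifts was not tested.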
